A study of Rattus norvegicus with 48 samples.

Results

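Kidneys of the rat strain labelled L were compared after 10 and after 7 days of indole-3-carbinol. Members were chosen by their labels alone, as the 4 arrays of L at day 10 against the 4 arrays of L at day 7, which makes 8 of the 48 arrays of the series. Every one of the 8797 probe sets was tested. In both groups male rats received 100 mg of indole-3-carbinol per kg body weight per day by stomach tube, for 10 days or for 7 days. Another L group, called day 0, received only the vegetable oil carrier and is given beside them as a baseline. All were 12 weeks old in the sample labels, and each group had 8 rats in the protocol but 4 arrays. It is not stated if 1 rat or several gave the RNA of an array. The p-values and intervals of probe sets rest on the spread between arrays within groups, pooled over all 12 groups of the series. Part of that spread may be technical. The other strains, F, FL and LF, had the same 3 groups, and the labels do not explain the strain letters.

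Indole-3-carbinol occurs in cabbage-family vegetables, and acid in the stomach turns it into products that bind the aryl hydrocarbon receptor, a transcription factor that switches on Cyp1a1, a drug-metabolising cytochrome. In rats that carry a renin gene behind the Cyp1a1 promoter, the same compound is given to raise blood pressure, and the labels do not state whether these rats carry such a gene. When renal tubule cells are damaged they make Havcr1 (kidney injury molecule 1), Clu (clusterin), Lcn2 and Timp1. Whole kidney RNA was measured, so fewer cells of a type and less RNA per cell cannot be told apart.

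Values are log2 array signals, so a difference of 1 is a doubling. Array medians lay between 5.87 and 6.01 at day 10 and between 5.80 and 5.94 at day 7. Precision is set by having 4 arrays a group. Each array correlated with the others of its group at a mean r of 0.987 to 0.991 across probe sets in the 3 L groups. Markers of kidney segments were well represented: Slc12a1, the salt transporter of the thick ascending limb, read 11.07 to 11.31 at day 10 and 10.89 to 11.17 at day 7. Cubn, a protein uptake receptor of the proximal tubule, read 10.29 to 10.40 at day 10 and 10.00 to 10.38 at day 7. Aqp2, the water channel of the collecting duct, read 9.25 to 9.69 at day 10 and 9.42 to 9.91 at day 7. The spread of signals within an array (SD over probe sets) averaged 2.48 ± 0.03 at day 10 and 2.43 ± 0.04 at day 7 (SD, n = 4 each; two-sided exact permutation p = 0.143, smallest possible 0.0286). Day 10 arrays also stood earlier in their array runs of the labels, at a mean position of 3 against 7.5 (exact permutation p = 0.086).

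No probe set passed the test between day 10 and day 7 in L kidneys. With limma and Benjamini-Hochberg adjustment, 0 of 8797 (0%) were higher and 0 (0%) were lower at an adjusted p of 0.05, and the smallest adjusted p was 0.812. At an unadjusted p of 0.05, 272 probe sets (3.09%) were higher and 158 (1.8%) lower, 430 (4.89%) in all. These shares are the background for the unadjusted counts of every list below. The 4 day 10 arrays all lay above the 4 day 7 arrays at 232 probe sets (2.64%) and all below at 108 (1.23%), 340 (3.86%) in all. The median difference over all probe sets was 0.05, and 62.1% of the differences were above 0. After each array's median was subtracted, the median difference was -0.03, so that the side with more positive differences turned.

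The 95% intervals, with errors pooled over all 12 groups, show what size of difference the fit leaves room for. The median interval reached 0.29 to either side of its estimate. At 8357 probe sets (95%) the whole interval lay between -1 and 1, and at 440 it reached beyond a doubling or a halving. Estimated differences passed 1 at 13 probe sets and -1 at 4. Replicates were about equally close in both groups, with a median SD over probe sets of 0.16 at day 10 and 0.16 at day 7.

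**Figure D1:**
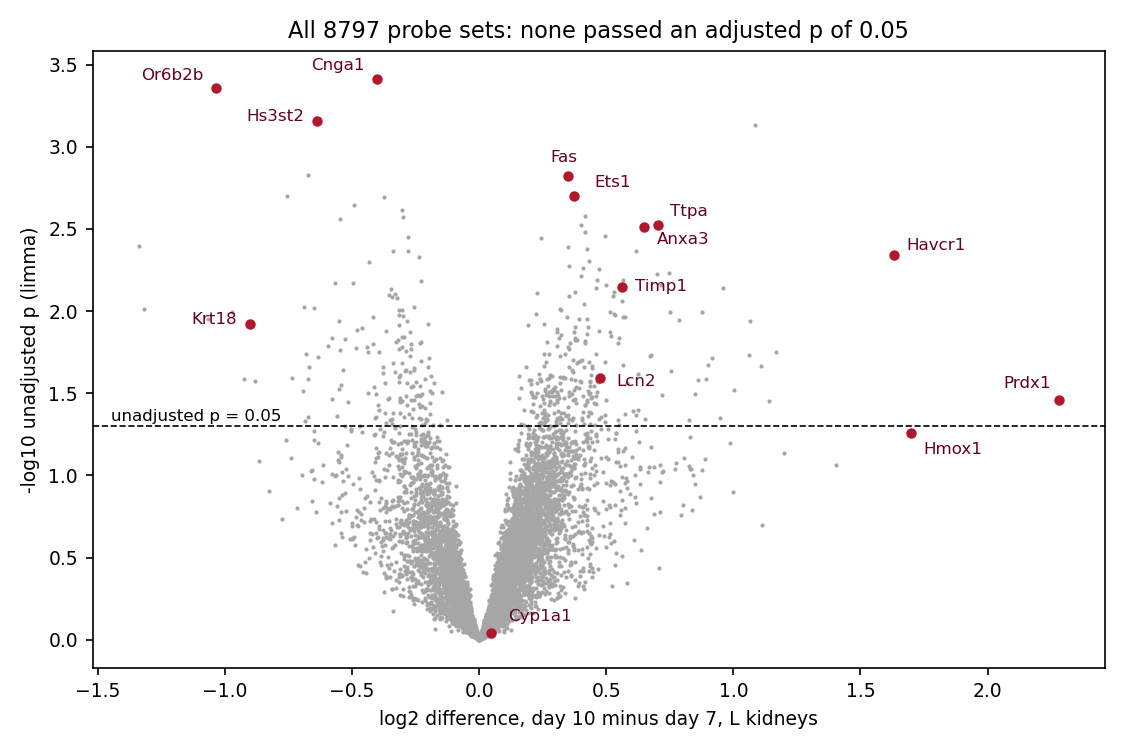
Each point is 1 of 8797 probe sets in L kidneys, with the log2 difference, day 10 minus day 7, on the x axis and the -log10 of the unadjusted limma p on the y axis. No point passed an adjusted p of 0.05; Cyp1a1 lies at the foot of the plot with a difference of 0.05, and Havcr1, Hmox1 and Prdx1 lie far to the right with wide spread between arrays.

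Cyp1a1, the usual mark of exposure to the compound, did not separate the treated days. It read 5.30, 5.38, 5.92 and 5.0 in the day 10 arrays and 5.54, 5.26, 5.76 and 4.85 in the day 7 arrays. The day 0 arrays read 3.57, 4.00, 4.14 and 4.08, below every treated array. The difference between day 10 and day 7 was 0.05 ± 0.43 (SE), with an interval of -0.83 to 0.93. The interval thus left room for nearly a doubling in either direction. Its width rests on the spread pooled over all 12 groups. The SD was 0.38 in L at day 10 and 0.39 in L at day 7, but 1.44 in F at day 7. Of the 8 measured genes of the aryl hydrocarbon receptor list, 0 passed the adjusted threshold, and at an unadjusted p of 0.05 there were 0 higher and 1 lower. That gene was Aldh3a1, an aldehyde dehydrogenase that the receptor induces, at 3.58, 3.89, 3.69 and 3.63 on day 10 and 3.98, 3.96, 4.00 and 3.94 on day 7 (difference -0.27 ± 0.11). Its day 10 arrays all lay below the day 7 arrays, at low signal. Ahr, the receptor itself, differed by 0.15 ± 0.15, and Ahrr, the repressor it induces, by -0.12 ± 0.10.

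Tubular injury markers gave the largest share of small unadjusted p-values among the lists, carried by 2 of the 4 day 10 arrays. Of 25 measured members, 0 passed the adjusted threshold; 9 were higher and 3 lower at an unadjusted p of 0.05, beside 3.09% and 1.8% of all probe sets. Their median difference was 0.32, and 20 of the 25 differences were positive. The list median was 0.24 after array medians were subtracted and 0.16 with the array spread as a covariate. The count of 9 was 3 without day 10 replicate 1, 4 without day 10 replicate 3, 6 without day 7 replicate 4 and 5 with the spread as a covariate.

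Havcr1, a receptor by which injured proximal tubule cells take up dying cells, read 6.63, 4.56, 7.04 and 4.09 at day 10. At day 7 it read 3.48, 4.23, 4.17 and 3.91, and at day 0 3.76, 3.82, 4.32 and 3.74. Day 10 replicates 1 and 3 stood above all other L arrays by more than 2 log2 units, while replicate 4 lay within the day 7 range. The difference was 1.63 ± 0.54, or 3.10-fold, with an interval of 0.54 to 2.73 (unadjusted p = 0.00452, adjusted p = 0.812, limma). The SD at day 10 was 1.47, against 0.34 at day 7. The SE, interval and p-value rest on the spread pooled over all 12 groups, whose SDs ran from 0.06 (LF day 0) to that 1.47. They do not measure the spread of the L arrays alone.

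Clu, a secreted chaperone of stressed tubules, read 9.52, 8.89, 9.75 and 8.72 at day 10, against 8.64, 8.65, 8.66 and 8.66 at day 7. All day 10 arrays lay above all day 7 arrays, and the difference was 0.57 ± 0.21. Timp1, an inhibitor of matrix-degrading proteases, read 6.37, 5.70, 6.29 and 5.68 at day 10 and 5.56, 5.34, 5.69 and 5.20 at day 7 (difference 0.56 ± 0.20). Here the groups overlapped by 1 day 7 array. Lcn2, an iron carrier shed by injured distal tubules, read 6.71, 5.89, 6.86 and 5.62 at day 10 and 5.45, 6.30, 5.96 and 5.47 at day 7 (difference 0.48 ± 0.20, or 0.28 without day 10 replicate 3). Cp, the copper protein ceruloplasmin, read 8.70, 7.82, 8.44 and 8.07 at day 10 and 8.18, 7.51, 7.64 and 7.58 at day 7 (difference 0.53 ± 0.20). In Havcr1, Clu, Timp1, Lcn2 and Cp alike the 2 highest day 10 arrays were replicates 1 and 3.

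Over the whole list, replicate 1 was the highest day 10 array at 13 of 25 members and replicate 3 at 9, against 33.5% and 26.2% of all probe sets. The mean of the members, each centred on its mean over all 48 arrays, was 0.235 and 0.206 in replicates 1 and 3 and -0.18 and -0.21 in replicates 2 and 4. At day 7 it lay between -0.36 and -0.12 in the 4 arrays. Replicates 1 and 3 were also the day 10 arrays with the widest spread of signals (SD over probe sets of 2.51 and 2.52, against 2.44 and 2.47 in replicates 2 and 4). With that spread as a covariate, the Havcr1 difference was 1.46 ± 0.55. The list also held 5 members with lower values at day 10, and Krt18 had the lowest difference. Krt18 also belongs to the collecting duct list, so it counts in both. Krt18, a keratin of simple epithelia, read 3.71, 4.81, 3.36 and 4.23 at day 10 and 5.02, 4.75, 4.28 and 5.67 at day 7 (difference -0.90 ± 0.34).

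**Figure D2:**
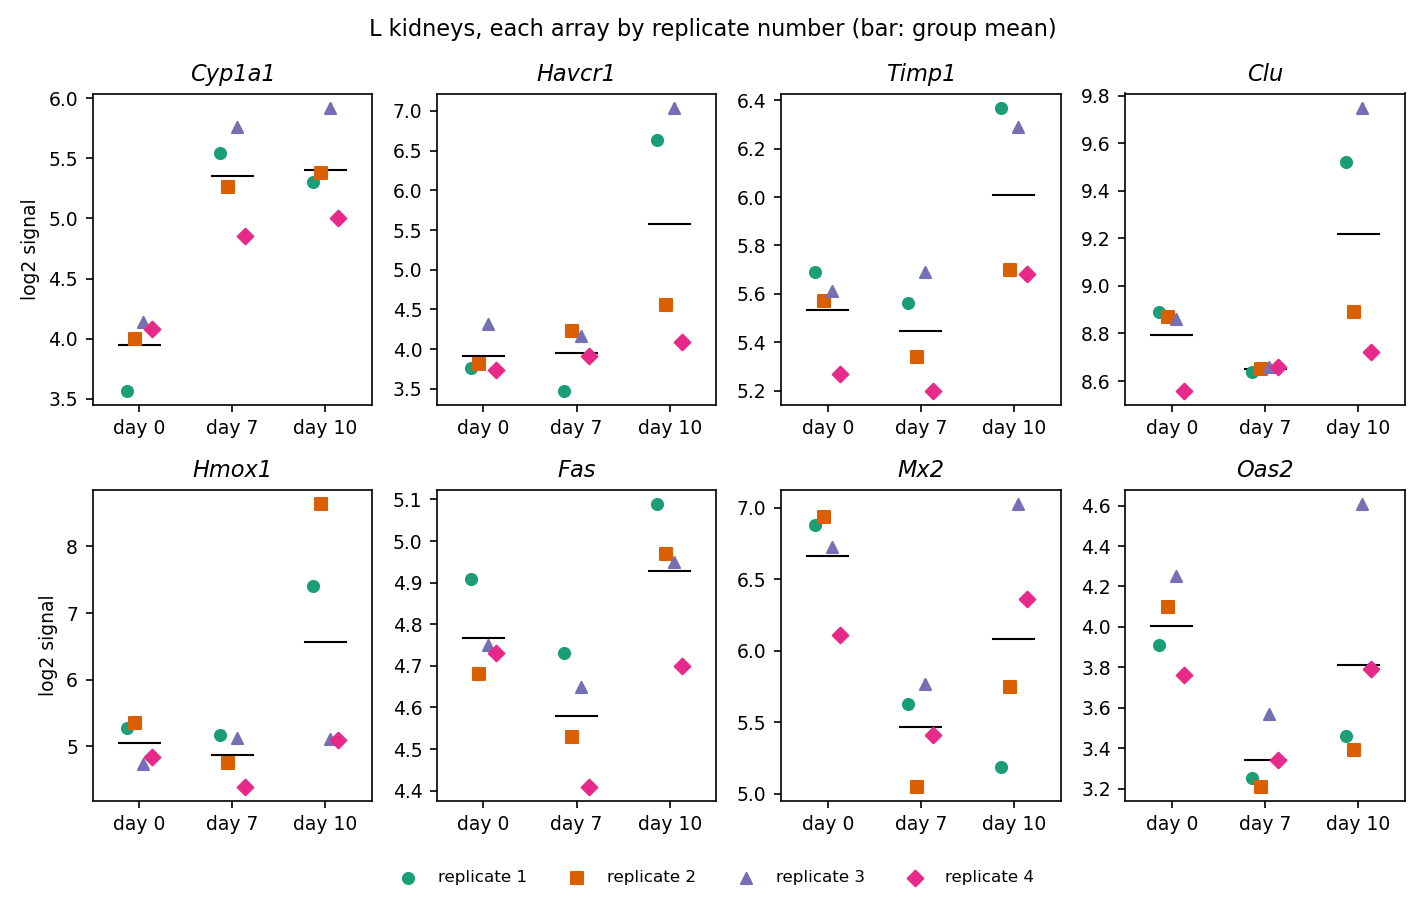
Log2 signal of 8 genes in each L array at days 0, 7 and 10, with 1 marker shape per replicate number and a bar at the group mean. Cyp1a1 is above its day 0 level on both treated days, Havcr1, Timp1 and Clu are high in day 10 replicates 1 and 3, Hmox1 in replicates 1 and 2, and Mx2 and Oas2 in replicate 3.

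Hmox1, the heme-degrading enzyme heme oxygenase 1, read 7.41, 8.64, 5.11 and 5.10 at day 10, against 5.17, 4.76, 5.13 and 4.40 at day 7. Replicates 1 and 2 were far above every day 7 array, and replicates 3 and 4 lay inside the day 7 range. The difference was 1.70 ± 0.86 with an interval of -0.04 to 3.44, and 1.01 without replicate 2. Its SD was 1.76 at day 10, the largest among the named genes, against 0.36 at day 7.

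Prdx1, a peroxide-removing enzyme, had the largest estimate among the listed genes, 2.28 ± 1.04. It read 5.86, 6.20, 4.69 and 3.48 at day 10 and 1.93, 2.20, 4.87 and 2.11 at day 7. The day 0 arrays ran from 1.54 to 7.14, so the untreated arrays covered the whole range of the treated ones. Gstm1, a glutathione transferase, read 8.40, 7.01, 7.75 and 7.05 at day 10 and 7.04, 7.07, 7.07 and 6.61 at day 7 (difference 0.61 ± 0.29, or 0.32 without day 10 replicate 1). Its 2 highest day 10 arrays were replicates 1 and 3, unlike those of Hmox1 and Prdx1, which were replicates 1 and 2. Of the 14 measured Nrf2 and glutathione genes, 0 passed the adjusted threshold. Unadjusted, 2 were higher and 0 lower, beside 3.09% and 1.8% of all probe sets. Their median difference of 0.06 was -0.03 after array medians were subtracted.

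Interferon-response genes had the highest list median, 0.34, and 21 of their 22 measured members had positive differences. None passed the adjusted threshold, and 2 higher and 0 lower had an unadjusted p under 0.05, beside 3.09% and 1.8% of all probe sets. Without day 10 replicate 3 the list median was 0.155, below the injury median of 0.278 in the same fit, with 17 of 22 positive and 0 higher at an unadjusted p of 0.05. That count was 8 without replicate 1, 9 without replicate 2, 5 without day 7 replicate 3, 3 without day 7 replicate 4 and 1 without day 7 replicate 2, where the median was 0.22. The median was 0.26 after array medians were subtracted, 0.20 with the array spread as a covariate and 0.22 with the position of the array in its run.

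Mx2, an antiviral GTPase, read 5.19, 5.75, 7.03 and 6.36 at day 10 and 5.63, 5.05, 5.77 and 5.41 at day 7 (difference 0.62 ± 0.31). Oas2, an enzyme that makes the signal for viral RNA decay, read 3.46, 3.39, 4.61 and 3.79 at day 10 and 3.25, 3.21, 3.57 and 3.34 at day 7 (difference 0.47 ± 0.18). Gbp2, a guanylate-binding protein of cell defence, read 5.89, 5.71, 6.56 and 6.27 at day 10 and 5.81, 5.24, 5.70 and 5.55 at day 7 (difference 0.53 ± 0.20). Replicates 3 and 4 stood above every day 7 array in all 3 genes. Replicates 1 and 2 lay within or close to the day 7 range.

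Oas1a, of the same family as Oas2, read 4.10, 4.37, 6.85 and 5.45 at day 10 and 4.72, 4.46, 5.75 and 4.06 at day 7 (difference 0.45 ± 0.54). Replicate 3 was the highest day 10 array at 19 of the 22 members and replicate 4 at the other 3, against 26.2% and 24.2% of all probe sets. The centred list mean was 0.58 in replicate 3 and 0.17 in replicate 4, against -0.34 and -0.29 in replicates 1 and 2, and -0.52 to -0.10 at day 7. The day 0 arrays had 0.45, 0.46, 0.35 and -0.10, so replicate 3 was the only treated L array above the 3 higher carrier arrays. Without replicate 3, the difference was 0.30 for Mx2, 0.20 for Oas2 and -0.11 for Oas1a, the last turning its sign. The injury markers shared the high replicate 3 but not the rest of this order: replicate 1, lowest of the 4 for the interferon list, was highest for the injury list.

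The interferon-stimulated response element is the DNA motif through which interferon signals reach such genes. Its core, taken here as 2 copies of GAAA with 2 bases between them, or of TTTC on the other strand, was searched in the RefSeq promoters of the rat assembly GRCr8, from 250 bases before to 50 after each gene's start. Of the 22 measured members 19 had a promoter in that table, and 11 of the 19 (57.9%) held the core: Bst2, Cxcl10, Gbp2, Ifi27, Ifit3, Irgm, Oas1a, Oas1b, Oasl2, Psmb8 and Rsad2. Of all 27457 promoters 3.77% held it. The 2 promoters below are shown because Gbp2 had the smallest p of the list and Oas1a the widest spread between the day 10 arrays; the core is in capitals, and in Oas1a 2 copies overlap.
Gbp2: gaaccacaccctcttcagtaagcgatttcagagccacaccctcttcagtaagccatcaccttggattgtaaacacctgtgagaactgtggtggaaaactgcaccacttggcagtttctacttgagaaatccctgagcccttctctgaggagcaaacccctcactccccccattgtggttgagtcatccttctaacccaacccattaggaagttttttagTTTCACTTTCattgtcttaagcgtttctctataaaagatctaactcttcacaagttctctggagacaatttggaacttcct
Oas1a: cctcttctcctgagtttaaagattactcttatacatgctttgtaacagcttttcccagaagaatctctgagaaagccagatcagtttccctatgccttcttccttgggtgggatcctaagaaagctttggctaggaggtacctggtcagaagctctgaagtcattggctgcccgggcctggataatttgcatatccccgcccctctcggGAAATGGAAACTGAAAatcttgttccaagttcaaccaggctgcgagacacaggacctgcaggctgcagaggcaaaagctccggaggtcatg
The Gbp2 sequence is chr2:234005477-234005776 and the Oas1a sequence chr12:41330216-41330515, both on the plus strand. A match is a description of the letters and shows no binding. The list was made of known interferon-response genes, so its higher share says nothing about day 10 against day 7. Mx2 is not in the table, so the promoter of the gene with the largest difference of the list is not shown.

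Damage-response genes of the p53 list had small differences. Of 14 measured members 0 passed the adjusted threshold. Unadjusted, 3 were higher and 0 lower, beside 3.09% and 1.8% of all probe sets. The median difference was 0.19, or 0.10 with the array spread as a covariate. Without day 10 replicate 4 or day 7 replicate 2 the count was 1. Fas, a death receptor that p53 induces, had the smallest p of all higher probe sets with a symbol. It read 5.09, 4.97, 4.95 and 4.70 at day 10 and 4.73, 4.53, 4.65 and 4.41 at day 7 (difference 0.35 ± 0.10, unadjusted p = 0.00151, adjusted p = 0.812, limma). The groups overlapped only through day 10 replicate 4 and day 7 replicate 1. Bax, which opens mitochondria in cell death, read 4.70, 4.83, 4.79 and 5.41 at day 10, all above 4.43, 3.79, 4.65 and 4.57 at day 7 (difference 0.57 ± 0.21). The day 0 arrays read 4.69, 4.70, 4.73 and 4.65, at or above every day 7 array. Cdkn1a, the cell cycle inhibitor p21, read 5.82 to 6.21 at day 10 and 5.60 to 5.73 at day 7, without overlap but with a difference of 0.32 ± 0.29 in the fit over all groups.

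Smooth muscle and macrophage markers had medians above 0 with no member past the adjusted threshold. Of 15 smooth muscle, pericyte and fibroblast markers, 4 were higher and 0 lower unadjusted (3.09% and 1.8% of all probe sets), with a median difference of 0.30. Rgs5, a G-protein regulator of pericytes, read 8.30, 8.25, 8.24 and 8.25 at day 10, against 7.95, 7.52, 7.87 and 7.62 at day 7 (difference 0.52 ± 0.20). The day 10 arrays lay above the day 7 arrays and close to each other, and 3 of the 4 day 0 arrays, at 8.22 to 8.30, were at the same level as day 10. Dcn, the matrix proteoglycan decorin, differed by 0.40 ± 0.16 and Des, the muscle filament protein desmin, by 0.38 ± 0.16.

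Of 18 macrophage markers 1 was higher and 0 lower unadjusted, and 17 had positive differences (median 0.21, or 0.10 with the array spread as a covariate). Without day 7 replicate 1 the count was 6, without day 10 replicate 2 it was 4, and without day 7 replicate 2 the median was 0.12. Lyz2, the lysozyme of macrophages, read 9.75, 9.06, 9.78 and 9.33 at day 10 and 9.14, 8.90, 9.08 and 9.05 at day 7 (difference 0.44 ± 0.19). The centred mean of the macrophage markers ran from -0.12 to 0.24 at day 10 and from -0.31 to 0.12 at day 7, so the groups overlapped. T and natural killer cell markers (22 measured, median -0.01), B and plasma cell markers (5, median 0.13) and granulocyte and mast cell markers (16, median 0.04) gave 1, 0 and 2 higher and 0 lower each at an unadjusted p of 0.05. Differences were positive at 10 and negative at 11 of the T and natural killer cell markers. Among the granulocyte and mast cell markers 9 were positive and 7 negative. The highest difference of the T and natural killer cell list was that of Il2rg. Il2rg, the shared chain of several lymphocyte cytokine receptors, read 5.93 to 6.19 at day 10, above 5.16 to 5.84 at day 7 (difference 0.57 ± 0.24). Fcnb, a lectin of granulocytes, read 5.79 to 5.95 at day 10, above 5.37 to 5.61 at day 7 (difference 0.35 ± 0.12).

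Erythroid and platelet markers had the lowest list median, -0.21 over 8 members, with 0 higher and 1 lower unadjusted. Over the 6 members left without the dimmest probe sets the median was -0.05, with 0 lower; it was -0.13 with the array spread as a covariate, -0.12 without day 7 replicate 2 and -0.31 without day 7 replicate 1. Hbb-b1, a beta globin, read 10.26, 9.32, 9.18 and 9.19 at day 10 and 10.23, 11.08, 9.30 and 9.26 at day 7, so the groups overlapped, with 1 array above 10 at day 10 and 2 at day 7. Matrix genes (21 measured) gave 2 higher and 0 lower, beside 3.09% and 1.8% of all probe sets. Their median was 0.16, or 0.07 with the array spread as a covariate. The count was 7 without day 7 replicate 1, 5 without day 10 replicate 2 and 0 without day 7 replicate 2. Fn1, the matrix protein fibronectin, read 8.32, 8.30, 8.63 and 8.43 at day 10 and 8.35, 7.85, 8.08 and 8.02 at day 7 (difference 0.35 ± 0.13). Complement and coagulation genes (21) gave 5 higher and 0 lower, beside 3.09% and 1.8% of all probe sets, with a median of 0.15. The count was 1 with the array spread (median 0.05) or run position as a covariate, 1 without day 10 replicate 1 or 3 or day 7 replicate 3, 3 without day 10 replicate 4 and 0 without day 7 replicate 2. Cd55, a shield against complement, had the smallest p of the list, at 5.04 to 5.31 on day 10 and 4.46 to 4.98 on day 7 (difference 0.42 ± 0.17). Chemokines and cytokines (35) gave 4 higher and 0 lower, beside the same shares of all probe sets. Their median was 0.11, or 0.03 with the array spread as a covariate. The count was 1 without day 7 replicate 2, and 2 without day 10 replicate 1, 3 or 4 or day 7 replicate 4. Il1b, an inflammatory cytokine, read 4.77, 4.74, 4.79 and 5.09 at day 10 and 4.40, 4.16, 4.31 and 4.88 at day 7 (difference 0.41 ± 0.14).

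**Figure D3:**
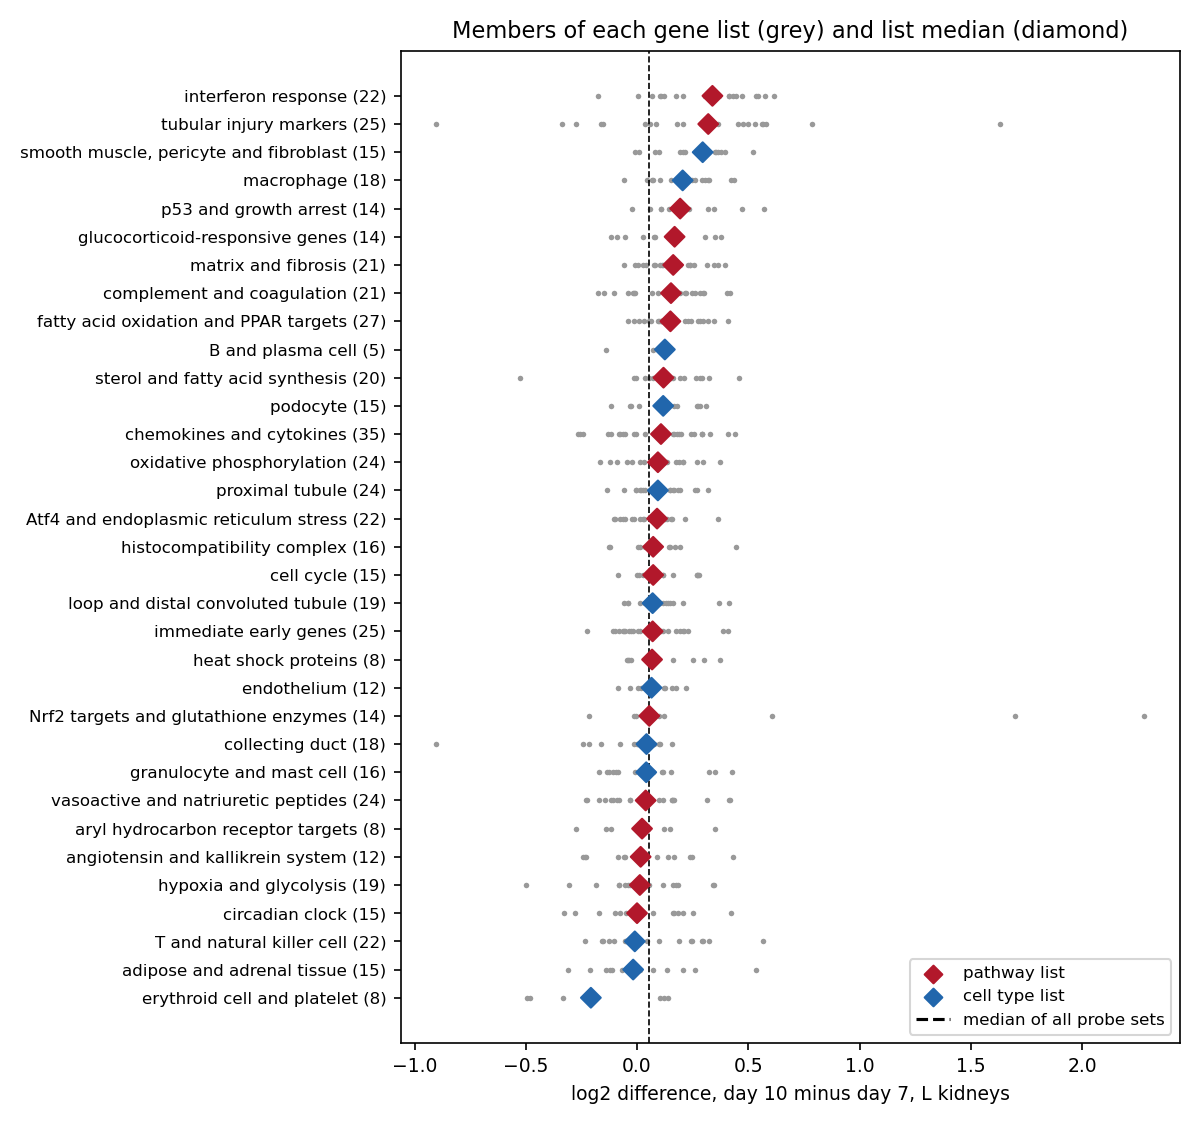
Each row is a gene list with its number of measured members; grey points are the members' log2 differences, day 10 minus day 7 in L kidneys, the diamond is the list median and the dashed line the median of all probe sets. Interferon (0.34) and tubular injury (0.32) lists have the highest medians, and erythroid and platelet markers (-0.21) the lowest.

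Markers of the nephron segments stayed near the median of all probe sets. The medians were 0.09 for 24 proximal tubule genes, 0.07 for 19 genes of the loop and distal convoluted tubule, 0.04 for 18 collecting duct genes and 0.12 for 15 podocyte genes. Unadjusted, 2, 0, 0 and 1 of these were higher and 0, 0, 1 and 0 lower, beside 3.09% and 1.8% of all probe sets. Calb1, the calcium-binding protein of the distal convoluted tubule, read 10.19, 9.98, 9.77 and 10.05 at day 10 and 9.94, 9.23, 9.53 and 9.63 at day 7 (difference 0.42 ± 0.24). Slc4a4, the bicarbonate exit of the proximal tubule, read 11.34, 10.92, 11.18 and 10.89 at day 10 and 11.04, 10.78, 10.70 and 10.77 at day 7 (difference 0.26 ± 0.12).

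Genes of the angiotensin and kallikrein system, the hormone cascade that sets renal salt handling and vessel tone, had a median difference of 0.02 over 12 measured members. Unadjusted, 2 were higher and 0 lower, beside 3.09% and 1.8% of all probe sets. Agtr1a, the main angiotensin II receptor, read 7.68, 6.93, 7.52 and 7.24 at day 10 and 7.25, 6.38, 7.04 and 6.97 at day 7 (difference 0.43 ± 0.21, or 0.26 without day 7 replicate 2). The groups overlapped, with replicate 2 the lowest array on both days. Ace, which makes angiotensin II, read 5.87, 6.0, 5.71 and 6.12 at day 10 and 6.19, 5.90, 6.22 and 5.73 at day 7, a difference of -0.09 ± 0.16. Agt, the precursor of the cascade, read 8.24 to 8.57 at day 10 and 8.27 to 8.59 at day 7, a difference of -0.06 ± 0.14. Nppa, the natriuretic peptide precursor, belongs to the separate list of vasoactive and natriuretic peptide genes and differed by -0.23 ± 0.12. In that list 14 differences were positive and 10 negative. Its members Nos3, Ramp2 and Calcrl had positive differences in each fit that left out 1 array.

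Fatty acid oxidation genes were high in day 10 replicate 1. Of 27 fatty acid oxidation and PPAR target genes 25 had positive differences with a median of 0.15 (0.07 after array medians were subtracted), and 1 was higher and 0 lower unadjusted. With the array spread as a covariate the median was 0.02 and 15 of 27 were positive, and without day 10 replicate 1 it was 0.07 with 20 positive. Replicate 1 was the highest day 10 array at 22 of the 27, against 33.5% of all probe sets. Its centred list mean was 0.49, against 0.08, 0.27 and 0.04 in the other day 10 arrays and -0.10 to 0.13 at day 7. Ppargc1a, a coactivator of mitochondrial genes, read 8.86, 8.43, 8.75 and 8.55 at day 10 and 8.29, 8.49, 8.44 and 8.18 at day 7 (difference 0.30 ± 0.14). Pdk4, a kinase that blocks glucose oxidation in fasting, read 7.15, 6.48, 6.22 and 5.61 at day 10 and 6.04, 6.38, 5.75 and 5.65 at day 7 (difference 0.41 ± 0.33, or 0.15 without day 10 replicate 1).

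Oxidative phosphorylation genes gave 2 higher and 0 lower of 24 with a median of 0.09, and replicate 1 was highest at 17 of them. Sterol and fatty acid synthesis genes gave 0 of 20 in either direction with a median of 0.12, and their centred mean was highest in replicate 4. Differences were positive at 17 of them and negative at 3, and Scd2 had the lowest. Acat2, Dhcr7 and Idi1 had positive differences in each fit that left out 1 array. Scd2, a fatty acid desaturase, read 6.60, 7.44, 7.71 and 8.13 at day 10 and 7.94, 8.14, 7.88 and 8.02 at day 7 (difference -0.53 ± 0.30, or -0.24 without day 10 replicate 1).

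Of 15 measured circadian clock genes 0 were higher or lower at an unadjusted p of 0.05, and the median was 0. Nr1d1, a repressor in the clock loop, read 7.34, 8.57, 8.67 and 8.77 at day 10 and 8.34, 7.55, 8.16 and 8.29 at day 7. Dbp, a clock output factor, read 7.60, 8.34, 8.60 and 8.48 at day 10 and 8.47, 8.35, 8.79 and 8.52 at day 7. Bmal1, the activator that Nr1d1 represses, read 7.18, 6.31, 6.78 and 6.63 at day 10 and 6.75, 6.20, 5.99 and 6.27 at day 7. Replicate 1 was the lowest day 10 array for Nr1d1 and Dbp and the highest for Bmal1, while over the list it was highest at 5 of 15 genes, near its share of all probe sets (33.5%). The hour at which kidneys were taken is not given in the labels, and its part in these values was not tested.

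The interferon, injury, smooth muscle, macrophage, p53, matrix, complement, chemokine and fatty acid oxidation medians were above 0 in every alternative fit, and the erythroid and platelet median below 0. Medians of the other lists that lay nearer to 0, among them the aryl hydrocarbon receptor, Nrf2, angiotensin, T cell, collecting duct, clock, sterol and oxidative phosphorylation lists, changed sign with the scaling or the arrays left out. The remaining lists gave no adjusted call either. Histocompatibility genes (16 measured) gave 0 higher and 0 lower unadjusted, cell cycle genes (15) 1 and 0, Atf4 and endoplasmic reticulum stress genes (22) 1 and 0, and heat shock proteins (8), immediate early genes (25) and glucocorticoid-responsive genes (14) 0 and 0. Hypoxia and glycolysis genes (19) gave 0 higher and 1 lower, vasoactive and natriuretic peptide genes (24) 2 and 0, endothelial markers (12) 1 and 0, and adipose and adrenal markers (15) 0 and 1.

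The 3 smallest p of all probe sets belonged to dim signals that were lower at day 10. Cnga1, a cyclic nucleotide-gated channel, had the smallest p of all, at 2.00, 2.16, 1.77 and 1.81 on day 10 and 2.29, 2.42, 2.20 and 2.44 on day 7 (difference -0.40 ± 0.10, unadjusted p = 0.000386, adjusted p = 0.812, limma). Or6b2b, an olfactory receptor, read 3.05, 2.41, 2.91 and 3.00 at day 10 and 3.77, 3.38, 4.80 and 3.57 at day 7 (difference -1.04 ± 0.27). Hs3st2, a heparan sulfate sulfotransferase, read 2.76, 3.18, 2.93 and 3.17 at day 10 and 3.64, 3.73, 3.62 and 3.60 at day 7 (difference -0.64 ± 0.17). All 3 had day 10 arrays entirely below day 7, at signals far under the array medians. The next 7 lower ones with a symbol were Or10c1, Pitx1, Fgf11, Stx1a, Ppm1e, Aqp5 and Ccdc172, with differences of -0.76 to -0.28.

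On the higher side, the 10 smallest p among probe sets with a symbol belonged to Fas, Ets1, Or10q12, Ttpa, Or6c75, Anxa3, Vegfd, Cd53, Zbtb10 and Fcnb, with differences of 0.24 to 0.70. Anxa3, a membrane-binding annexin, read 6.40, 6.02, 6.36 and 6.32 at day 10, all above 5.86, 5.49, 5.61 and 5.54 at day 7 (difference 0.65 ± 0.21). Ttpa, the vitamin E transfer protein, read 5.79, 4.79, 5.21 and 4.81 at day 10 and 4.80, 4.24, 4.25 and 4.50 at day 7 (difference 0.70 ± 0.22). Vegfd, a lymphatic growth factor, read 6.35 to 6.52 at day 10, above 5.81 to 6.28 at day 7, while day 0 lay at 6.28 to 6.79. Cd53, a tetraspanin of leukocytes, read 6.86, 6.49, 6.78 and 6.72 at day 10 and 6.78, 5.73, 6.11 and 6.25 at day 7 (difference 0.50 ± 0.16). Ets1, a transcription factor of vessels and lymphocytes, read 8.06 to 8.35 at day 10 and 7.72 to 8.17 at day 7 (difference 0.37 ± 0.11).

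Whether L differs from the other strains between these days was tested on the difference itself. Against the mean of F, FL and LF, 0 of 8797 probe sets passed the adjusted threshold in either direction (0% each), with 108 higher (1.23%) and 97 lower (1.1%) at an unadjusted p of 0.05. Against each of F, FL and LF there were also 0 (0%). Unadjusted, 483 (5.49%) were higher and 207 (2.35%) lower against F, 104 (1.18%) and 128 (1.46%) against FL, and 122 (1.39%) and 187 (2.13%) against LF. Within their own strain, day 10 against day 7 gave 0 (0%) in F and in FL, and 94 higher (1.07%) and 9 lower (0.102%) in LF. The LF split was 126 and 70 after a second quantile normalization, 81 and 41 with array medians subtracted, 72 and 61 with the array spread as a covariate, 149 and 13 with array weights and 478 and 46 with the replicate block. That LF passed the threshold where L did not is not by itself a difference between them.

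The smallest p against LF was at the interferon-response gene Mx2. Among probe sets with a symbol, the next on the lower side were Slfn4, Oas1a, Mx1 and Bst2. On the higher side the smallest p were at Creb3l3 and then Hmox1, which are not interferon-response genes of the list. For Mx2 the day 10 minus day 7 difference was 0.62 in L and 2.73 in LF, so L minus LF was -2.11 ± 0.44 (adjusted p = 0.197, limma). For Oas1a it was 0.45 in L and 3.50 in LF (L minus LF -3.06 ± 0.76), for Slfn4, a growth regulator of myeloid cells, 0.58 and 2.51 (-1.94 ± 0.46), and for Mx1 0.55 and 2.24 (-1.70 ± 0.43), each with an adjusted p of 0.42. Without L day 10 replicate 3, the highest L array at all 4 of these genes, 6 probe sets passed the threshold as lower in L, with a smallest adjusted p of 0.0113. They were Mx2, Mx1, Slfn4, Oas1a, Oas1b and 1 with no symbol. Hmox1 was 1.70 in L and -3.13 in LF (L minus LF 4.83 ± 1.22, adjusted p = 0.42), from arrays that ran between 4.40 and 8.64 in treated L and between 5.22 and 10.57 in treated LF.

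Against F the smallest p was at Rhoh, a GTPase of lymphocytes, with 0.52 in L and -0.75 in F (L minus F 1.27 ± 0.28, adjusted p = 0.51). It passed the threshold without L day 7 replicate 1, at an adjusted p of 0.0474. Timp1 was 0.56 in L and -0.47 in F (1.03 ± 0.28, adjusted p = 0.616). Against FL the smallest p was at Stx1a, a vesicle fusion protein, with -0.30 in L and 0.28 in FL (-0.58 ± 0.13, adjusted p = 0.717). Havcr1 differences were 1.63 in L, -0.11 in F, 1.33 in FL and 1.56 in LF, each ± 0.54, and L minus the mean of the others was 0.71 ± 0.63. The intervals of L minus FL (-1.25 to 1.86) and of L minus LF (-1.48 to 1.63) left room for differences beyond a doubling in either direction. Havcr1 levels were lower in L than in LF on both days, with means of 5.58 and 8.40 at day 10 and 3.95 and 6.84 at day 7.

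**Figure D4:**
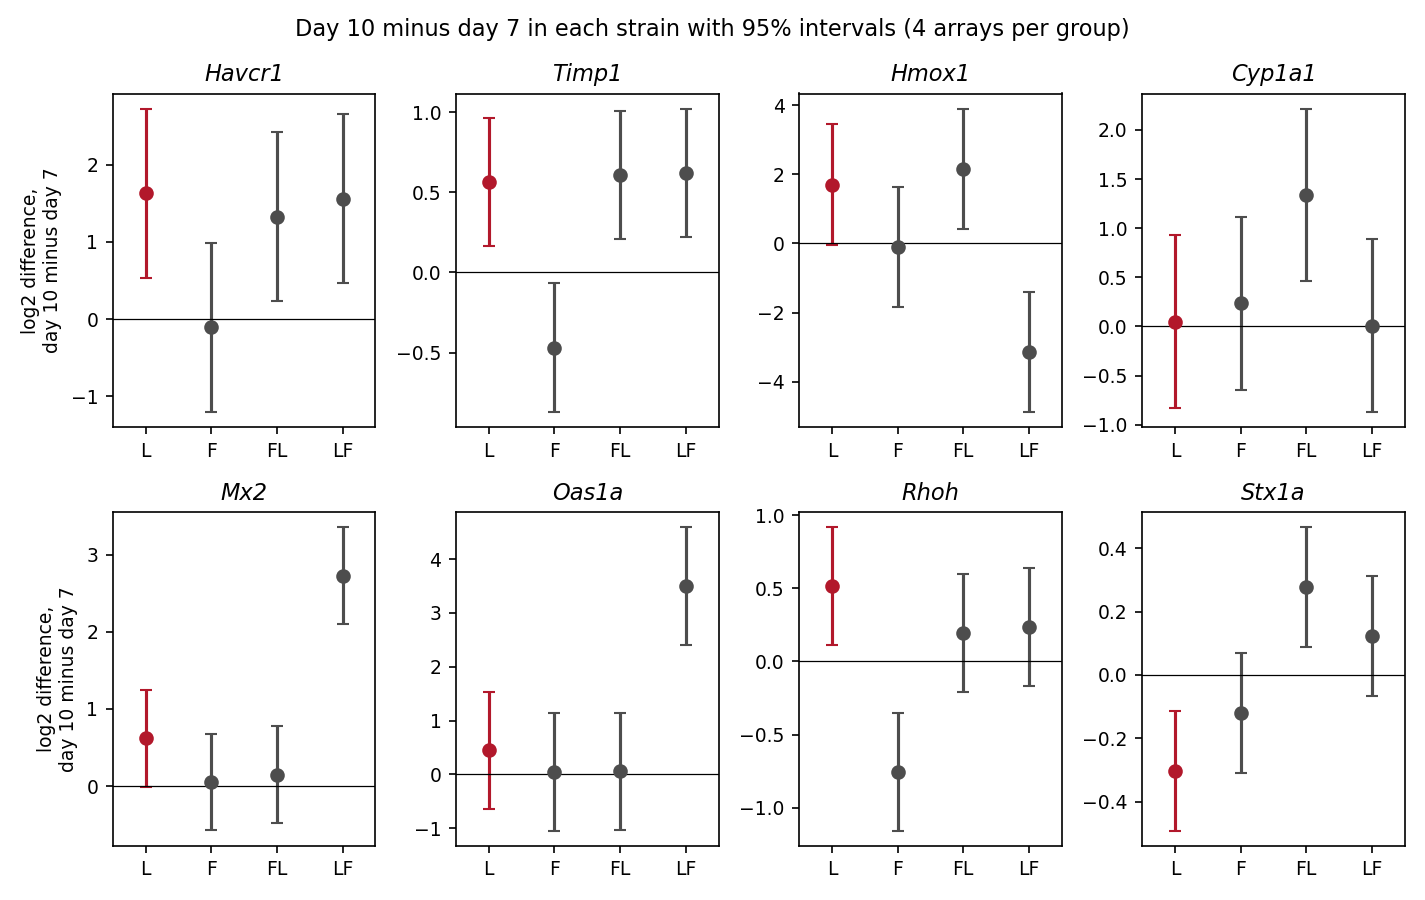
Log2 difference, day 10 minus day 7, in L (red) and in F, FL and LF (grey) for 8 genes, with 95% intervals from the limma fit over all 48 arrays. Havcr1 is at 1.63 in L and -0.11 in F, Mx2 at 0.62 in L and 2.73 in LF; no difference between L and another strain passed the adjusted threshold.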

How the data were processed

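Kidney RNA on Affymetrix whole-transcript arrays was analysed from the deposited series matrix. The deposited values are log2 signals per probe set, which the authors made with RMA, named together with limma and without versions in the submitters' processing notes; genome build and probe annotation are not given in the sources used here. Probe sets were named through the platform annotation and RefSeq: 7603 had 1 symbol, 409 several and 785 none.

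In R 4.3.3, limma 3.58.1 fitted 1 mean per group to all 48 arrays (36 residual degrees of freedom), with Benjamini-Hochberg adjustment over 8797 probe sets at 0.05. Intervals are 95%. L minus other strains was a contrast of the same fit. The test was also run on simulated data, made by reassigning the residuals of the arrays to groups at random and adding known changes. That step keeps neither the run codes nor the unequal spread of groups, so no result here rests on it.

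Named were the 10 smallest p in each direction, up to 4 members per list by p, the 5 smallest p per strain contrast and direction, and 20 fixed genes, of which Spp1 had no named probe set. The part, the lists, the fixed genes and the tests were chosen with earlier results of these data known. Fits with other scalings, covariates, blocks, sample choices and left-out arrays are given in the closing section.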

Additional observations from a re-analysis of the deposited data

Results flagged for a closer look

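Named genes, array spread and array median were examined within L day 10 and within L day 7, as 82 sets of 4 values. In 4 of the 82 sets 1 array lay far from the other 3, near the 1 in 20 that chance gives. The sets share the same 8 arrays, so they are not independent. Nr1d1 was 7.34 in L day 10 replicate 1, against 8.57 in the nearest of the others. Zbtb10, a zinc finger protein, was 7.51 in L day 10 replicate 3, with 7.38 next. Aqp5, a water channel, was 5.67 in L day 10 replicate 2, with 5.36 next. Stx1a was 6.15 in L day 7 replicate 1, with 6.02 next.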

How the results depend on the processing

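For day 10 against day 7 in L, 0 probe sets passed the adjusted threshold in any of the 20 other fits (18 planned, 2 added after seeing the data), so the count ranged from 0 to 0 when each array was left out, with smallest adjusted p of 0.661 to 0.996. Among 177 named genes and 3518 refitted values, 0 were called, and 27 values in 11 genes changed sign: Agt, Ahr, Aqp4, Cyp1a1, Ltb, Oas1a, Robo4, Scd, Sik1, Sult1a1 and Tpsab1. Unadjusted counts moved more: from 272 higher and 158 lower to 195 and 329 with array medians subtracted, 238 and 244 after a second quantile normalization, 154 and 219 when adjusted for array spread, 183 and 178 for position in the run, 642 and 254 with array weights, 379 and 184 on the 12 L arrays, 560 and 224 on 8 arrays, and 245 and 88 over the 6597 brighter probe sets. The share higher among these was 63.3% in the reported fit, 37.2% with medians subtracted and 49.4% after quantile normalization. Same-numbered arrays share a run code. Between L day 10 and day 7 their deviations from the group means correlated at 0.013, 0.084, 0.129 and 0.143. Other-numbered arrays had a mean of -0.031. Over all groups the means were 0.094 for the same number and -0.031 for other numbers. The reported fit did not include the run code. Fits with the replicate number as a block are given next, and whether the run caused any of these values was not tested. With the replicate block in limma the count was 0 (603 and 198 unadjusted, smallest adjusted p 0.477). On 8 arrays with the block it was 0 (833 and 255, 0.0662), and with block and position 0 (smallest 0.124). L minus LF gave 1 call with position in the run (Mx2, adjusted p 0.0488), and 0 to 6 over the left-out arrays: 6 without L day 10 replicate 3 and 1 without L day 7 replicate 4 (Tpsab1, 0.00299). L minus F gave 0 to 1, the 1 being Rhoh. L minus FL and L minus the mean of the others gave 0 throughout. The Havcr1 difference ran from 1.15 without day 10 replicate 3 to 2.13 without replicate 4, and Hmox1 from 1.01 without replicate 2 to 2.19 without replicate 4. The cause of these moves was not tested.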
